A study of Rattus norvegicus with 6 samples.

Results

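The miR-148 and miR-152 family in rat testis was read in 6 small RNA libraries, 3 from diabetic and 3 from normal adult male Sprague-Dawley rats. Its members were chosen by name alone: every entry of the deposited miRNA table called miR-148a, miR-148b or miR-152, with either arm, was taken. No measured value entered that rule, but the family was put forward with earlier results of these data known, so the differences between groups given here are a description and support nothing further. The rule found 6 of the 721 entries, namely rno-miR-148a-3p, rno-miR-148a-5p, rno-miR-148b-3p, rno-miR-148b-5p, rno-miR-152-3p and rno-miR-152-5p. The diabetic rats carried STZ-induced diabetes, and their testes were profiled 8 weeks after the STZ injection. The labels give a week for the diabetic rats only, while the study's methods place the extraction of RNA in both groups at 8 weeks. Streptozotocin (STZ) is a toxin that kills pancreatic beta cells, the source of insulin. By the study's methods a high-fat diet preceded the STZ injection and control rats received the citrate buffer alone, while the controls' diet, the animals' exact ages and any pooling of testes were not given in the sources used here. Whole testicular tissue was used, so fewer cells of a type and less miRNA per cell cannot be told apart.

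A miRNA is cut from a hairpin whose stem gives a 5p and a 3p arm, and one arm is usually retained in Argonaute while the other is degraded. The retained strand finds messenger RNAs mainly through its seed, bases 2 to 8, so miRNAs with a common seed share most of their predicted targets. The miR-148 and miR-152 family is known for acting on Dnmt1, the enzyme that copies DNA methylation to new strands at cell division. DNA methylation is erased and written anew in the male germ line. No target messenger RNA was measured in these files.

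The mature sequences are shown because they carry the comparison of the paralogs: the capitals mark the seed, and the 3p strands have the same one. They come from RefSeq (build GRCr8) and were matched by miRNA name, which found 5 of the 6 members. rno-miR-148b-5p is named only.
rno-miR-148a-3p: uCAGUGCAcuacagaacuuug
rno-miR-148b-3p: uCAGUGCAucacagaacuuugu
rno-miR-152-3p: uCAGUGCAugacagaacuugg
rno-miR-148a-5p: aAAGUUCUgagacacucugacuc
rno-miR-152-5p: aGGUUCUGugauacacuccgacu

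In that build rno-miR-148a-3p lies at chr4:81664447-81664467 on the minus strand. rno-miR-148b-3p lies at chr7:136299930-136299951 on the plus strand, and rno-miR-152-3p at chr10:82329435-82329455 on the plus strand. These positions belong to the RefSeq record and not to the deposited table, which holds none. The RefSeq gene table placed Mir148b inside Copz1 and Mir152 inside Copz2, paralogous genes for the zeta subunit of the coatomer coat of transport vesicles. Mir148a overlapped no listed gene. The 3p strands differed only outside the seed. Counted from the 5′ end, miR-148a-3p and miR-148b-3p differed by C9U and U10C, and 19 of 21 aligned bases were the same. miR-148b-3p and miR-152-3p differed by C10G and U20G, again with 19 of 21 bases in common. miR-148a-3p and miR-152-3p differed by C9U, U10G and U20G and had 18 of 21 bases in common. A mature sequence was found for 492 of the 539 named miRNAs, and 3 of these (0.610%) carried the seed, all of them members of the family. How reads that match more than one paralog were shared is not given in the sources used here, so part of the difference between paralogs is uncertain. The 5p strands had other seeds, and miR-148a-5p and miR-152-5p did not have the same one.

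The libraries held 305476 to 549446 reads over the listed miRNAs, with diabetic replicate 1 the shallowest. Levels are given as CPM, read counts scaled to one common total in every library, in which 1 read was worth 1.82 to 3.27 CPM. Germ-cell markers of testis, led by miR-34c, were all 9 present and summed to 384891 to 400117 CPM in diabetic and 368228 to 416917 CPM in normal libraries, so the defining markers of the labelled tissue were there. The sum was mostly miR-34c-5p. Singly, miR-741-3p (means of 42380 against 36257 CPM) and miR-463-5p (1631 against 1421 CPM) were higher in diabetes without overlap. miR-34b-3p (4724 against 5247 CPM) was lower without overlap, and the rest of the list overlapped. The family took 14030 of 2690909 reads. It held 0.476% to 0.500% of reads in the diabetic libraries and 0.519% to 0.577% in the normal libraries, so these ranges did not overlap. Among the members the largest difference in mean CPM was that of miR-152-3p, given below. Nothing in the labels says that the libraries of a group came from separate rats, and p-values then measure only the spread between these libraries.

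The 3p strands were the main products of all 3 hairpins. The order of mean levels over the 6 libraries was miR-148b-3p at 2106 CPM, miR-152-3p at 1589 CPM, miR-148a-3p at 1060 CPM and miR-148a-5p at 414 CPM. Far below them stood miR-152-5p at 17.2 CPM and miR-148b-5p at 14.8 CPM, and this last pair did not differ beyond the spread of their libraries. These put the members at ranks 55, 62, 81, 127, 313 and 331 of the table. Each mature miRNA is counted once whatever its length, and mature strands differ in length by few bases, so CPM were compared directly. Capture of a strand during library preparation also depends on its sequence, and that share of a difference in level was not tested.

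**Figure D1:**
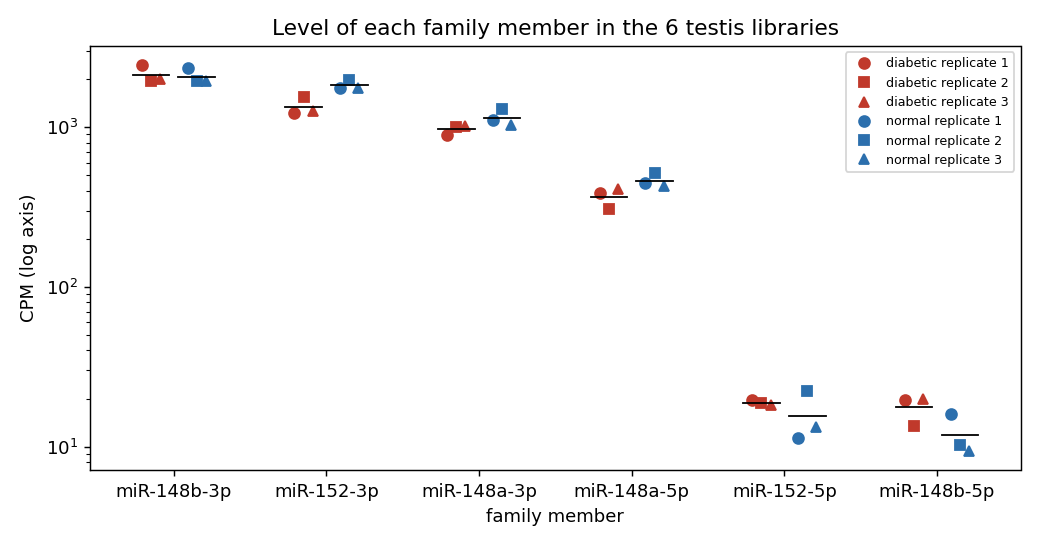
Level in CPM (log axis) of the 6 family members in each of 3 diabetic (red) and 3 normal (blue) libraries, with replicates 1, 2 and 3 as circles, squares and triangles and a bar at each group mean. The red and blue points of miR-152-3p do not overlap, while those of miR-148b-3p and of the scarce miR-152-5p and miR-148b-5p do.

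rno-miR-152-3p, the main strand of the Copz2-embedded hairpin, stood at 1230.9, 1537.4 and 1270.4 CPM in diabetic replicates 1, 2 and 3. It stood at 1758.8, 1975.3 and 1761.8 CPM in normal replicates 1, 2 and 3. Every diabetic library was below every normal library, and the groups were 221 CPM apart at their nearest. The values rested on 376, 572 and 698 reads against 776, 973 and 934. The group means were 1346 ± 167 and 1832 ± 124 CPM (SD, n = 3 each), which put the diabetic mean at 0.735 of the normal mean. The difference in log2(CPM + 1), diabetic minus normal, was -0.45 with a standard error of 0.12 and a 95% interval of -0.70 to -0.19. In the limma fit over 578 miRNAs its unadjusted p was 0.00193, which ranked 2 among all, and its adjusted p was 0.348. It therefore did not pass the adjusted threshold of 0.05. Its adjusted p ran from 0.0638 with the DESeq2 Wald test to 0.637 with eBayes without the trend.

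Across all miRNAs, 0 of 578 (0%) had an adjusted p under 0.05 in limma, against 51 (8.82%) at an unadjusted p under 0.05. On the same miRNAs the edgeR test called 2, miR-122-5p and the predicted miRNA X_47314, and the DESeq2 test called 1, miR-122-5p, and these were named after their values were seen. None of them is a member. Of the 6 members 1, miR-152-3p, had an unadjusted p under 0.05.

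rno-miR-148a-3p stood at 897.0, 999.9 and 1022.8 CPM in the diabetic libraries and at 1112.8, 1305.3 and 1024.3 CPM in the normal libraries. The groups did not overlap, but diabetic replicate 3 and normal replicate 3 were only 1.5 CPM apart, which is less than 1 read in either library. The means were 973 ± 67.0 and 1147 ± 144 CPM (SD, n = 3 each). The difference on the log2(CPM + 1) scale was -0.23 with a standard error of 0.13, and the limma adjusted p was 0.669. Without normal replicate 2 the difference was -0.14.

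rno-miR-148a-5p, the other arm of the same hairpin, stood at 386.3, 306.4 and 407.7 CPM in the diabetic libraries and at 444.2, 513.6 and 428.2 CPM in the normal libraries. Again all diabetic values were below all normal values, and normal replicate 2 was the highest for both arms. The means were 367 ± 53.4 and 462 ± 45.4 CPM (SD, n = 3 each). Its difference was -0.34 with a standard error of 0.16 on the log2(CPM + 1) scale (limma adjusted p = 0.551). Without diabetic replicate 2 the difference was -0.21.

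rno-miR-148b-3p, the most abundant member, stood at 2442.1, 1948.7 and 2016.6 CPM in the diabetic libraries and at 2336.7, 1940.8 and 1948.6 CPM in the normal libraries. Replicate 1 was the highest in both groups, and the groups overlapped almost fully. The means were 2136 ± 267 and 2075 ± 226 CPM (SD, n = 3 each). The difference was 0.04 with a standard error of 0.12 and a 95% interval of -0.22 to 0.30 on the log2(CPM + 1) scale (limma adjusted p = 0.876). Its sign turned with TMM and with upper-quartile factors, and without any 1 of diabetic replicate 1, normal replicate 2 or normal replicate 3.

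The minor strands of these last hairpins were near the depth limit. rno-miR-152-5p was seen in 6, 7 and 10 reads under diabetes and in 5, 11 and 7 reads otherwise, or 19.6, 18.8 and 18.2 against 11.3, 22.3 and 13.2 CPM. The diabetic values lay inside the range of the normal values. In normal replicate 1, for instance, its 5 reads were 0.00113% of the library with a 95% Wilson interval of 0.000484% to 0.00265%, for counting error only. rno-miR-148b-5p had 6, 5 and 11 reads against 7, 5 and 5, or 19.6, 13.4 and 20 against 15.9, 10.2 and 9.4 CPM, and its groups overlapped too. The differences on the log2(CPM + 1) scale were 0.31 with a standard error of 0.53 for miR-152-5p and 0.55 with a standard error of 0.57 for miR-148b-5p (limma adjusted p = 0.842 and 0.795). That of miR-152-5p was 0.13 without normal replicate 1 and 0.59 without normal replicate 2. A difference was not detectable at this depth for either strand.

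**Figure D2:**
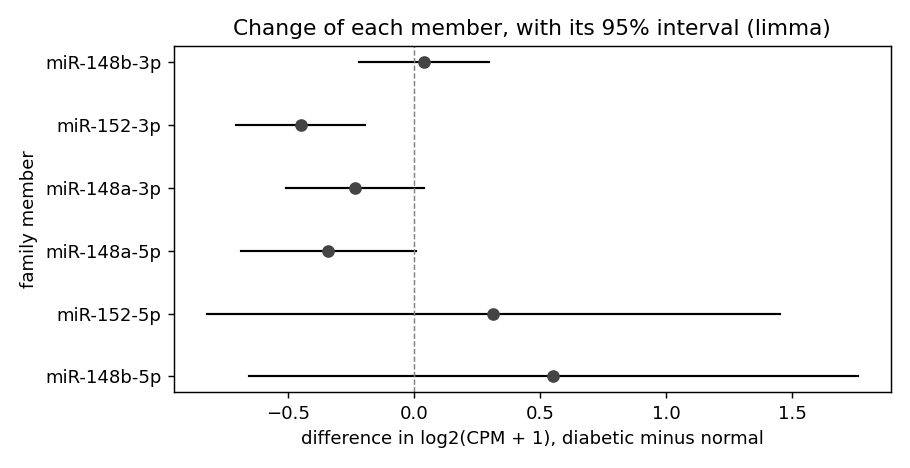
Difference in log2(CPM + 1), diabetic minus normal, of each family member (points) with its 95% interval from the limma fit (lines; 3 libraries per group). The interval of miR-152-3p, -0.70 to -0.19, lies below 0 before adjustment for 578 tests, and the intervals of the other 5 members include 0.

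In all, 3 of the 6 members were lower in diabetes without overlap, miR-148a-3p, miR-148a-5p and miR-152-3p. The groups overlapped for miR-148b-3p, miR-148b-5p and miR-152-5p. Of all 578 tested miRNAs 40 (6.92%) were lower without overlap. All 3 of those members had at least 10 reads in every library, as did 4 members in all, and among the 257 miRNAs that deep 20 (7.78%) were lower without overlap. The arms of miR-148a come from 1 hairpin and are not independent of each other. The median difference over the 6 members was -0.10 and over all 578 miRNAs 0.0046 on the log2(CPM + 1) scale. Of the 257 deep miRNAs 8, miR-152-3p included, had a difference at or below that of miR-152-3p.

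The 3p strands of the family, which have the common seed, were summed. Entries without a mature sequence were not checked for that seed. The sum was 4570, 4486 and 4310 CPM in the diabetic libraries and 5208, 5221 and 4735 CPM in the normal libraries, so the sums did not overlap. In group means, diabetic minus normal, miR-152-3p differed by -486 CPM, miR-148a-3p by -174 CPM and miR-148b-3p by 60.4 CPM. The lower sum thus came mostly from miR-152-3p. miR-148b-3p made up 53.4%, 43.4% and 46.8% of the sum in the diabetic libraries and 44.9%, 37.2% and 41.2% in the normal libraries. miR-152-3p made up 26.9%, 34.3% and 29.5% against 33.8%, 37.8% and 37.2%. Both shares overlapped between groups through diabetic replicate 2 and normal replicate 1. miR-148a-3p gave between 19.6% and 25.0% in all libraries.

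**Figure D3:**
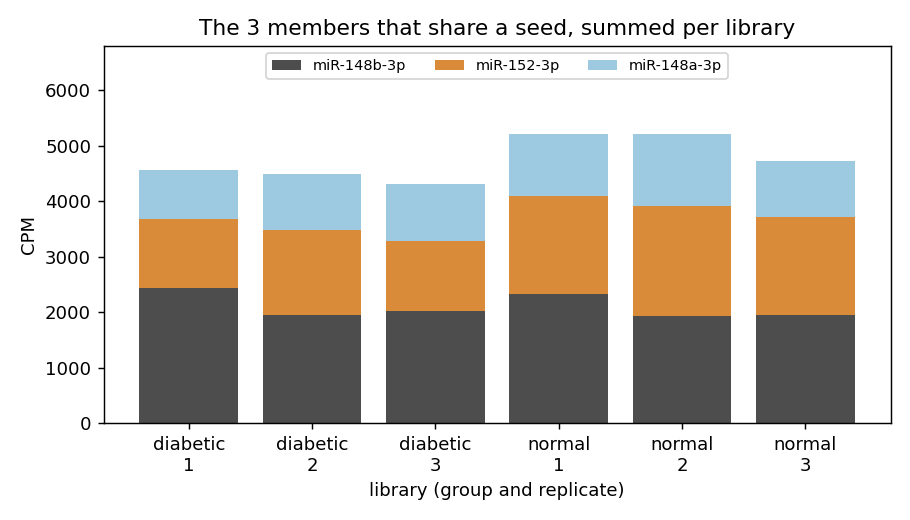
CPM of miR-148b-3p, miR-152-3p and miR-148a-3p, which have the same seed, stacked per library, with the bar height as their sum. The bars reach 4310 to 4570 CPM in the diabetic libraries and 4735 to 5221 CPM in the normal libraries, and the middle segment, miR-152-3p, is at most 1537.4 CPM in the diabetic libraries and at least 1758.8 CPM in the normal libraries.

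The paralogs were compared within each library, where the scaling to CPM cancels. miR-148b-3p was 1.98, 1.27 and 1.59 times as abundant as miR-152-3p in the diabetic libraries. In the normal libraries the same ratio was 1.33, 0.983 and 1.11. Thus miR-148b-3p was the more abundant in 5 of 6 libraries, and in normal replicate 2 the order was turned. In the normal group these neighbours had overlapping levels, whereas in the diabetic group the lowest miR-148b-3p value was above the highest miR-152-3p value. miR-152-3p was above miR-148a-3p in 6 of 6 libraries.

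The log2 ratio of miR-148b-3p to miR-152-3p, on (CPM + 1), averaged 0.67 ± 0.32 over the diabetic and 0.18 ± 0.22 over the normal group (SD, n = 3 each). Diabetic replicate 2 lay below normal replicate 1, so the groups overlapped. The group means were 0.49 apart with a standard error of 0.23, and the two-sided exact permutation test gave p = 0.2, where 3 against 3 libraries cannot give less than 0.1. The ratio of miR-148a-3p to miR-152-3p had group means 0.22 ± 0.10 apart (standard error), with p = 0.2 by exact permutation. That of miR-148b-3p to miR-148a-3p had group means 0.27 ± 0.22 apart (standard error), with p = 0.4 by exact permutation. The last of these differences was 0.11 without diabetic replicate 1 and 0.13 without normal replicate 2, and that of miR-148a-3p to miR-152-3p was 0.14 without diabetic replicate 3. Adjusted over the 3 comparisons the exact permutation p-values were 0.3, 0.3 and 0.4. A difference between the paralogs in their diabetic change was therefore not shown, although miR-152-3p had no overlap and miR-148b-3p overlapped.

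The use of the arms differed widely between hairpins. miR-148a-3p was 2.32 to 3.26 times as abundant as miR-148a-5p over the 6 libraries. The same ratio was 62.8 to 156 for miR-152 and 101 to 207 for miR-148b, so the highest ratio of miR-148a was far under the lowest of the others. Over the libraries the 5p arm of miR-148a stood at rank 117 to 135 of the 721 entries. Those of miR-152 and miR-148b stood lower, at 300 to 350 and 301 to 370.

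Within the miR-152 hairpin the log2 ratio of 3p to 5p, on (CPM + 1), was 5.90, 6.28 and 6.05 in the diabetic libraries and 7.16, 6.41 and 6.96 in the normal libraries, without overlap. The difference was -0.76 ± 0.25 (standard error), and exact permutation gave p = 0.1, the smallest possible. For miR-148b it was 6.89, 7.08 and 6.59 against 7.11, 7.44 and 7.55, also without overlap, with a difference of -0.51 ± 0.20 (standard error) and p = 0.1 by exact permutation. Both ratios rest on 5 to 11 reads of the 5p strand in each library. At their nearest the groups were at 7.08 against 7.11 for miR-148b and 6.28 against 6.41 for miR-152, so the lack of overlap depends on few reads. For miR-148a, with 114 reads or more of each arm, the difference was 0.11 ± 0.15 (standard error; p = 0.8 by exact permutation), and it turned to -0.0387 without diabetic replicate 2 and was 0.21 without diabetic replicate 1. Adjusted over the 3 hairpins the exact permutation p-values were 0.15, 0.15 and 0.8.

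**Figure D4:**
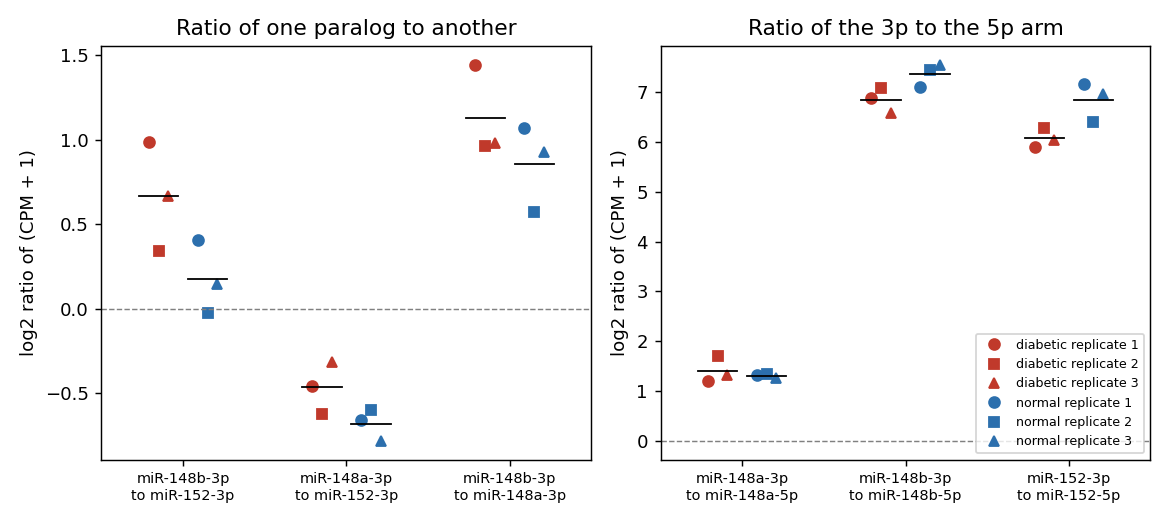
Log2 ratio of (CPM + 1) within each library for the 3 pairs of 3p paralogs (left) and for the 3p against the 5p arm of each hairpin (right), with diabetic libraries in red, normal libraries in blue and a bar at each group mean. The paralog ratios overlap between groups, and the arm ratios of miR-148b and miR-152, which rest on 5 to 11 reads of the 5p strand, do not.

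The miRNAs whose pattern was most like that of miR-152-3p were sought among the 253 others with at least 10 reads in every library. By Pearson's r of log2(CPM + 1) over the 6 libraries these were miR-322-5p at 0.87, the predicted miRNA 17_40744 at 0.86 and miR-542-3p at 0.85. miR-322-5p stood at 402.7, 427.4 and 391.3 CPM in the diabetic libraries and at 494.1, 594.8 and 437.6 CPM in the normal libraries. For miR-148b-3p they were miR-672-5p at 0.96, miR-451-5p at 0.93 and miR-106b-3p at 0.91. miR-451-5p, a miRNA of red blood cells, stood at 255.3, 147.8 and 162.0 CPM in the diabetic and at 217.6, 150.2 and 183.0 CPM in the normal libraries, so replicate 1 was the highest of each group as it was for miR-148b-3p. The other red-cell markers did not have this order in both groups. miR-486 was highest in replicate 2 of each, at 478.4 and 464.9 CPM. miR-144-3p was the highest of its group in diabetic replicate 1, at 72.0 CPM, but the lowest in normal replicate 1, at 6.8 CPM or 3 reads. Within the family, miR-152-3p had an r of 0.82 with miR-148a-3p and of -0.42 with miR-148b-3p. These values describe 6 libraries that also share depth and group.

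Markers of other cells were summed beside these results. The endothelial markers (2 of 2 listed) were at 11722 to 13783 CPM in the diabetic and 8662 to 11086 CPM in the normal libraries, and the miR-202 arms of Sertoli and other gonadal cells (2 of 2) at 4102 to 4467 against 3262 to 3693 CPM. Both sums were higher in diabetes without overlap, the opposite direction to miR-152-3p. The miR-202 sum was nearly all miR-202-5p (means of 4107 and 3340 CPM), while miR-202-3p overlapped between groups at means of 130 and 150 CPM. Likewise miR-126a-3p was higher without overlap and miR-126a-5p overlapped. Liver-typical miR-122-5p was at 936 to 1372 against 1839 to 2786 CPM, lower without overlap as miR-152-3p was. Red-cell, white-cell, contractile-cell and skeletal-muscle sums (3 of 3, 4 of 4, 2 of 2 and 3 of 3 listed) overlapped between groups at 535 to 743 against 651 to 698, 495 to 652 against 592 to 762, 85368 to 95342 against 78599 to 96768 and 27.2 to 58.9 against 18.8 to 28.5 CPM. Of the white-cell list miR-142-3p was lower without overlap, at 303.7 to 363.4 against 394.4 to 521.7 CPM. The other 3 overlapped, with means of 46.3 against 71.3 CPM for miR-142-5p, 187 against 163 CPM for miR-150-5p and 5.47 against 4.53 CPM for miR-223-3p. No listed marker was at 0 in all libraries, but miR-223-3p of white cells and miR-206-3p of skeletal muscle were at 0 in 3 of 6. The part of these cells in the family's values was not tested.

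Related miRNAs outside the family were read from lists of names. The miR-130 and miR-301 family has the seed of miR-148 moved by 1 base, as the RefSeq sequence shows for a member in the table.
rno-miR-130a-3p: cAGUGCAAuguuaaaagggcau

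Of 5 names on that list 3 were in the table and tested. They held 0 with an adjusted p under 0.05 in either direction (limma), where all 578 miRNAs held 0 too. The median difference of the 3 was 0.02 on the log2(CPM + 1) scale, and each of them overlapped between groups. miR-130b-3p was near the depth limit, at 0, 6 and 0 reads in the diabetic and 2, 1 and 0 in the normal libraries. So was miR-301a-3p, at 4, 11 and 3 against 2, 4 and 12 reads. miR-130a-3p stood at 49.1, 37.6 and 56.4 CPM in the diabetic and at 36.3, 69.0 and 39.6 CPM in the normal libraries, far under the family's 3p strands. miR-29a-3p, miR-29b-3p and miR-29c-3p, known for acting on the Dnmt3a and Dnmt3b enzymes that write new DNA methylation, were the other list. Of these 3, 0 had an adjusted p under 0.05 in either direction (limma), as 0 of all 578 had. All 3 miR-29 strands overlapped between groups, and their median difference was 0.13. miR-29a-3p stood at 11425, 12504 and 10809 CPM in the diabetic and at 10131, 11121 and 10548 CPM in the normal libraries.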

How the data were processed

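The authors removed adaptors from single-end small RNA reads, annotated known miRNAs by miRBase and deposited CPM, in which all listed reads of a library are scaled to the same total, rounded to 1 decimal, under headings that say TPM. The submitters' processing notes list Bowtie 0.12.2, HISAT2 2.0, StringTie 1.3.0 and the build mm8, without roles. The build mm8 is of mouse, whereas these samples are of rat. The extraction text in the labels speaks of poly(A) selection, whereas the series' design and the methods describe miRNA sequencing. The miRBase release is not given in the sources used here.

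Whole reads were recovered from the CPM (100% of values within 0.05 CPM). Groups came from the labels. limma 3.58.1 in R 4.3.3 compared log2(CPM + 1) of diabetic and normal libraries over the 578 miRNAs that reached 1 CPM in 3 or more libraries (lmFit, eBayes with trend, Benjamini-Hochberg adjustment). The scale understates changes of scarce miRNAs. Ratios within a library were compared by exact permutation (scipy 1.17.1). Alternatives included edgeR 4.0.16 and DESeq2 1.42.0 on the recovered reads. The fits were tested on simulated data.

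The members and lists were chosen with earlier results of these data known. All members are named. So are, for miR-152-3p and the most abundant member, the 3 miRNAs with the highest correlation. miR-130a-3p and miR-29a-3p were picked as examples after their values were seen.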

Additional observations from a re-analysis of the deposited data

How the results depend on the processing

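The count of miRNAs with an adjusted p under 0.05, 0 in limma, became 1 without a filter, under the filter of 10 reads, with TMM or upper-quartile factors, under DESeq2's Wald test and under the replicate block (miR-122-5p each time), 2 with edgeR (miR-122-5p and X_47314) and 8 with eBayes without the trend. It ran from 0 to 2 when 1 library was left out (miR-122-5p, miR-126a-3p or X_47314), with 2 without normal replicate 2. No member was among those called in any of these settings. The cause was not tested.

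The difference of miR-148b-3p became -0.0106 with TMM and -0.0675 with upper-quartile factors, and ran from -0.0606 to 0.1279 when 1 library was left out. Upper-quartile factors moved the median of all miRNAs to -0.10, and relative to that median miR-148b-3p was at 0.03 and miR-152-3p at -0.46. miR-152-3p ran from -0.56 to -0.39 over its 16 alternatives, and miR-148a-3p, miR-148a-5p and both scarce 5p strands kept their sign in theirs, though 1 library left out moved miR-148a-3p to between -0.31 and -0.14, miR-148a-5p to between -0.42 and -0.21 and miR-152-5p to between 0.13 and 0.59. The arm ratio of miR-148a ran from -0.0387 to 0.2062 when 1 library was left out, and the other ratios kept their sign, with miR-148b-3p to miR-148a-3p between 0.11 and 0.38 and miR-148a-3p to miR-152-3p between 0.14 and 0.30. The 3 members without overlap were the same with DESeq2, TMM and upper-quartile factors, which were tried after the data were seen.

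Same-numbered libraries did not deviate together (r of -0.11, -0.073 and -0.057 over 296 miRNAs). With so few libraries per group, this does not settle whether the numbers pair libraries. With the replicate block miR-152-3p kept its difference of -0.45, with a limma adjusted p of 0.187. The 5p strands of miR-148b and miR-152 failed the filter of 10 reads and gave no value there. Depth limits these strands, at 5 to 11 reads a library.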
